A study of Homo sapiens with 6 samples.

Results

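The genes described here encode 9 core proteins of the PI3K, AKT and mTOR pathway: PIK3CA, PIK3CB, PIK3R1, PDPK1, AKT1, AKT2, MTOR, RICTOR and RPTOR. They were chosen by symbol, and all 9 were among the 10487 genes of the deposited expression table. None of the 9 transcripts differed detectably between IGFBP2 overexpression and control MDAMB468 cells.

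Class I PI3K is a heterodimer of a catalytic subunit and a regulatory subunit, and it makes the lipid PIP3 at the plasma membrane below growth factor receptors. PIP3 brings AKT to the membrane, where PDPK1 and the RICTOR-containing complex mTORC2 phosphorylate it. AKT in turn releases the RPTOR-containing complex mTORC1 from the TSC brake, and mTORC1 drives protein synthesis and cell growth. Much of this signalling is set by phosphorylation, which messenger RNA levels do not measure.

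The study asked what changes in a triple negative breast cancer line when IGFBP2, a secreted protein that binds insulin-like growth factors, is raised. The line is MDAMB468, a human line known for an amplified EGFR gene. Control cells (3 libraries) are labelled WT with no treatment. IGFBP2 overexpression cells (3 libraries) are also untreated and carry dCas9-VPH, an inactive Cas9 fused to transcriptional activators, with a guide RNA against IGFBP2. Both vectors were delivered by lentivirus, and the transduced cells were drug-selected and sorted for the fluorescent guide vector. The sources used here do not say that the control cells carry the activator or a guide, so effects of IGFBP2, the activator system, selection and sorting cannot be told apart. The labels call the samples of each group biological replicates and do not say whether they were separate cultures, so p-values measure the spread between these libraries.

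Messenger RNA was sequenced from its 3' end (QuantSeq), and the deposited values are log2(CPM + 1), where CPM is a read count relative to the scaled depth of the library. Summed over the table, the controls gave 4579587 (replicate 1), 3530444 (replicate 2) and 2497353 reads (replicate 3). The corresponding depths with IGFBP2 overexpression were 2547997, 3068198 and 3069734 reads. Mitochondrially encoded genes took 7.31%, 7.61% and 8.55% of these reads in the control libraries and 8.29%, 7.2% and 8.06% in the IGFBP2 overexpression libraries, so the groups overlapped.

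The labelled cell type was checked against marker genes. All 7 basal-like and epithelial markers were listed: EGFR, KRT5, KRT14, KRT16, KRT17, CDH1 and EPCAM. Their levels differed widely, and KRT14 was the lowest in every library, at 6.24 to 18.9 CPM. EPCAM was at 384, 320 and 314 CPM in control and 441, 452 and 353 CPM in IGFBP2 overexpression libraries. The receptors ESR1 and PGR were not listed, and ERBB2 was at 15.8 to 37 CPM in all libraries. None of 4 immune and 2 endothelial markers was listed, and of 4 fibroblast markers only COL1A1 was, at 9.36 to 27.5 CPM. The table lists only genes over an expression minimum, so an unlisted gene was below it or was not annotated.

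IGFBP2 (ENSG00000115457, chromosome 2, 216632828 to 216664436, GRCh38) was at 93.5, 87.3 and 136 CPM in the control libraries. It was at 566, 1176 and 498 CPM in the IGFBP2 overexpression libraries. All 3 IGFBP2 overexpression libraries were above all 3 controls, with a log2 fold change of 2.73 (SE 0.33, adjusted p = 0.0148, limma with Benjamini-Hochberg adjustment over all genes). The activator acts from the promoter, so the 250 bases before the IGFBP2 start are shown (RefSeq, GRCh38.p14, plus strand, chr2:216632578-216632827). Capitals mark a GC box, the letters GGGCGG searched on both strands, which 42.6% of 35116 promoter windows of that length hold.
IGFBP2: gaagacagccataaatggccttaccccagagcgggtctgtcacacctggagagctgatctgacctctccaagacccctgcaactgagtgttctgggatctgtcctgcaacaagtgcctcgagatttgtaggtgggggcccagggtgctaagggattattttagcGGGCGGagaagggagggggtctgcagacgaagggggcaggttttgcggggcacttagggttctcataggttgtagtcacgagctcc

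In the same windows, 8 of the 9 core genes held a GC box and RPTOR did not. Each window was set by a RefSeq start, which can differ from the gene positions printed below. The PIK3CA window (179148107 to 179148356) and the AKT2 window (40285346 to 40285595) lie largely inside those positions. The GC content of the 9 windows ran from 47.2% to 83.2% with a median of 72.8%, and the median over all windows was 58%. The letters GTAAACA, a FOXO motif, were in the PIK3CA window alone among the 9 and in 2.98% of all windows. A match of letters is a description and not evidence of binding.

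Across all genes, limma called 66 of 10487 (0.629%) at an adjusted p under 0.05, of which 45 were higher in IGFBP2 overexpression (0.429%) and 21 lower (0.2%). None of the 9 core genes was called. All 9 had a mean above the authors' minimum of 5 CPM in both groups. None reached an unadjusted p under 0.05 either, a level that 13% of all genes reached. With limma's mean-variance trend, which called 1.53% of all genes, and with limma voom on recovered reads, which called 1.34%, none of the 9 was called.

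**Figure D1:**
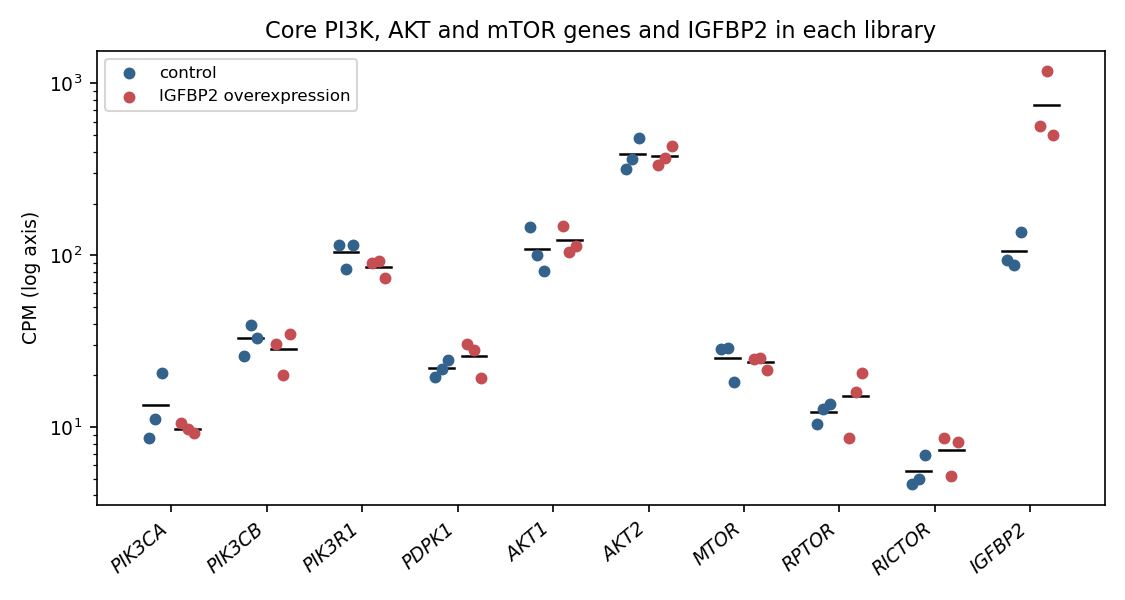
CPM (log axis) of the 9 core genes and IGFBP2 in 3 control and 3 IGFBP2 overexpression libraries, with points as libraries in replicate order and lines as group means. The groups overlap in all 9 core genes, and IGFBP2 is the gene whose groups separate.

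The groups of libraries overlapped in all 9 core genes, whereas they did not overlap in 18% of all genes (9.43% with IGFBP2 overexpression above and 8.61% below). The 5 genes PIK3CA, PIK3CB, PIK3R1, AKT2 and MTOR had a log2 fold change below 0 and the other 4 above 0. The signs of PIK3CB, AKT2, MTOR and RPTOR turned on leaving out single libraries, and AKT1 fell to 0.00052 without control replicate 3. The median of the 9 was -0.031, beside 9.8e-05 over all genes, and the median size regardless of sign was 0.21 for both. These fold changes are on the log2(CPM + 1) scale, which understates changes of low genes such as RICTOR.

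PIK3CA (ENSG00000121879, chromosome 3, 179148114 to 179240093) encodes the catalytic subunit p110 alpha, often mutated in breast cancer. It was at 8.66, 11.1 and 20.6 CPM in control and at 10.5, 9.68 and 9.2 CPM in IGFBP2 overexpression libraries. The high value of control replicate 3 set the control mean of 13.5 ± 6.32 CPM (SD, n = 3), against 9.8 ± 0.672 CPM with IGFBP2 overexpression, and the groups overlapped. The log2 fold change was -0.34 (SE 0.29, adjusted p = 0.683 from limma), and it ran from -0.59 without control replicate 1 to -0.0045 without control replicate 3. Each value rested on 27 to 51 reads.

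PIK3CB (chromosome 3, 138652698 to 138834928) encodes the catalytic subunit p110 beta. Control libraries held 26, 39.2 and 33.2 CPM and IGFBP2 overexpression libraries 30.4, 20 and 34.8 CPM. The lowest library was an IGFBP2 overexpression one and the highest a control, with overlap between them. For PIK3CB the log2 fold change was -0.22 (SE 0.25, adjusted p = 0.783 from limma), and it was 0.0087 without IGFBP2 overexpression replicate 2.

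PIK3R1 (chromosome 5, 68215740 to 68301821) encodes p85 alpha, the regulatory subunit that stabilises and restrains the catalytic ones. Its level was 115, 83.2 and 114 CPM in control and 90.4, 92.3 and 73.6 CPM in IGFBP2 overexpression libraries. Control replicate 2 lay within the range of the IGFBP2 overexpression libraries, which were higher than a control in 2 of 9 library pairs. The log2 fold change was -0.27 (SE 0.21, 95% interval -0.74 to 0.20, adjusted p = 0.639 from limma), and it ran from -0.42 without control replicate 2 to -0.17 without IGFBP2 overexpression replicate 3.

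PDPK1 (chromosome 16, 2537979 to 2603188) encodes the kinase that phosphorylates the activation loop of AKT. It was at 19.5, 21.7 and 24.7 CPM in control and 30.4, 28.1 and 19.4 CPM in IGFBP2 overexpression libraries. IGFBP2 overexpression replicates 1 and 2 were above every control and replicate 3 below every control. For PDPK1 the log2 fold change was 0.21 (SE 0.22, adjusted p = 0.74 from limma), and it ran from 0.09 without IGFBP2 overexpression replicate 1 to 0.40 without replicate 3. PDPK1 has a near-identical copy, PDPK2P, so the assignment of its reads is uncertain.

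AKT1 (chromosome 14, 104769349 to 104795751) and AKT2 (chromosome 19, 40230317 to 40285536) encode the AKT kinases. AKT1 was at 146, 99.9 and 81.3 CPM in control and 149, 105 and 113 CPM in IGFBP2 overexpression libraries. AKT2 was at 319, 365 and 483 CPM in control and 334, 368 and 430 CPM in IGFBP2 overexpression libraries. The spread within each group exceeded the difference between groups for both. The log2 fold change was 0.19 (SE 0.26, adjusted p = 0.818 from limma) for AKT1 and -0.031 (SE 0.22, adjusted p = 0.972) for AKT2.

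AKT1 plus AKT2 summed to 498 ± 57.4 CPM in control and 499 ± 37.9 CPM in IGFBP2 overexpression libraries (SD, n = 3). The control libraries had AKT1 to AKT2 ratios of 0.457, 0.273 and 0.168, and the IGFBP2 overexpression libraries 0.446, 0.284 and 0.263. The ratio was therefore highest in replicate 1 of each group.

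MTOR (chromosome 1, 11106535 to 11262556) encodes the kinase shared by mTORC1 and mTORC2. It was at 28.4, 28.9 and 18.2 CPM in control and 24.9, 25.2 and 21.4 CPM in IGFBP2 overexpression libraries. All 3 IGFBP2 overexpression libraries lay inside the control range. For MTOR the log2 fold change was -0.051 (SE 0.22, adjusted p = 0.952 from limma).

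RICTOR (chromosome 5, 38937920 to 39074402) defines mTORC2 and RPTOR (chromosome 17, 80544819 to 80966371) defines mTORC1. RICTOR was at 4.66, 5.01 and 6.87 CPM in control and 8.58, 5.16 and 8.21 CPM in IGFBP2 overexpression libraries. It was higher with IGFBP2 overexpression in 8 of 9 library pairs, the most of the 9 genes, but each value rested on 16 to 25 reads. Its log2 fold change was 0.34 (SE 0.24, adjusted p = 0.598 from limma), the smallest adjusted p of the 9. Leaving out IGFBP2 overexpression replicate 1 gave 0.23, leaving out IGFBP2 overexpression replicate 2 gave 0.54, and a pseudocount of 5 gave 0.22.

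RPTOR was at 10.4, 12.8 and 13.7 CPM in control and 8.58, 16.1 and 20.7 CPM in IGFBP2 overexpression libraries. IGFBP2 overexpression libraries were both its lowest and its highest. For RPTOR the log2 fold change was 0.20 (SE 0.30, adjusted p = 0.831 from limma), and it was -0.049 without IGFBP2 overexpression replicate 3.

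**Figure D2:**
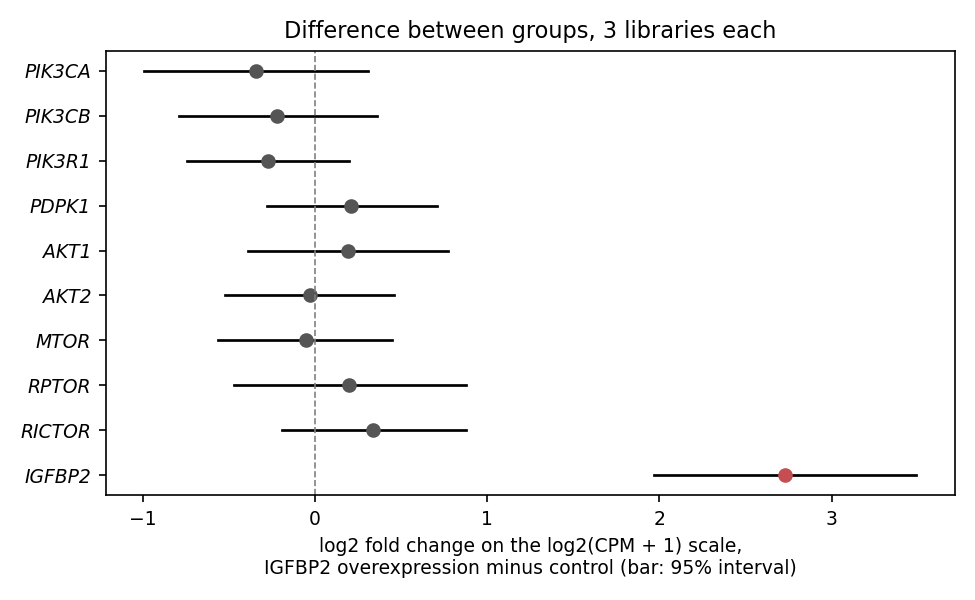
Difference in log2(CPM + 1), IGFBP2 overexpression minus control (3 libraries each), for IGFBP2 and the 9 core genes, with bars for the 95% interval from limma. The interval of each core gene includes 0, and that of IGFBP2 runs from 1.97 to 3.49.

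The 95% intervals bound what these libraries could have missed. As folds on the log2(CPM + 1) scale, the intervals lay between 0.504 (the lower end for PIK3CA) and 1.84 (the upper end for RICTOR and RPTOR). For AKT2 the interval was 0.697 to 1.37, and for MTOR 0.68 to 1.37. At its own SE, a core gene would have needed a fold between 2.26 (PIK3R1) and 3.22 (RPTOR) to be called by the main fit. That fit would not have called smaller differences, and this limit does not carry over to the trend and voom fits.

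For AKT2 the spread among libraries was wider than read counting alone gives. The coefficient of variation of AKT2 was 21.7% among controls, where counting alone would give 2.76%. For RICTOR it was 21.6% against 23.1% among controls and 25.6% against 21.8% with IGFBP2 overexpression, so counting error was of a size close to the whole spread. In bulk RNA a lower value from fewer cells of a kind and from less RNA per cell cannot be told apart.

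In control cells the order of levels was AKT2 at 389 ± 84.6 CPM, AKT1 at 109 ± 33.2, PIK3R1 at 104 ± 17.9, PIK3CB at 32.8 ± 6.63, MTOR at 25.2 ± 6.05, PDPK1 at 22 ± 2.58, PIK3CA at 13.5 ± 6.32, RPTOR at 12.3 ± 1.71 and RICTOR at 5.51 ± 1.19 (SD, n = 3). Reads come from the 3' end of each transcript, so these levels were not divided by transcript length. AKT1 and PIK3R1 overlapped, as did each adjacent pair from PIK3CB down to RPTOR, so the order within these pairs was not resolved. AKT2 stood above AKT1, PIK3R1 above PIK3CB and RPTOR above RICTOR in every control library.

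With IGFBP2 overexpression the order was the same for the first 4 and the last gene. PDPK1 at 26 ± 5.81 CPM stood before MTOR at 23.8 ± 2.15, and RPTOR at 15.1 ± 6.12 before PIK3CA at 9.8 ± 0.672, and each pair overlapped. AKT2 made up 54.2% ± 6.84 of the summed CPM of the 9 genes in control and 54.2% ± 5.16 with IGFBP2 overexpression. The sum was 713 ± 71.2 and 695 ± 31.4 CPM.

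A ratio of the CPM of 2 genes within a library cancels the scaling of that library, which the added 1 of log2(CPM + 1) does not fully allow. The ratios were tested as differences of log2(CPM + 1), whereas the ratios printed for single libraries are of CPM. Besides AKT1 to AKT2, they were computed for PIK3CA to PIK3CB, PIK3R1 to PIK3CA and RICTOR to RPTOR. On the log2(CPM + 1) scale the difference in mean log2 ratio was 0.22 for AKT1 to AKT2, -0.12 for PIK3CA to PIK3CB, 0.067 for PIK3R1 to PIK3CA and 0.14 for RICTOR to RPTOR. Without the pseudocount these were 0.22, -0.14, 0.088 and 0.18. In exact permutation tests (two-sided) their p-values were 0.8, 0.7, 0.8 and 1, and all were 1 after Benjamini-Hochberg adjustment over the 4. The smallest p that 3 libraries against 3 allow is 0.1. The RICTOR to RPTOR ratio was 0.447, 0.391 and 0.5 in control and 1, 0.32 and 0.397 with IGFBP2 overexpression, so its mean turned on IGFBP2 overexpression replicate 1, without which the difference on the log2(CPM + 1) scale was -0.32.

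The genes with the pattern most like RICTOR over the 6 libraries were ZHX1-C8orf76, TUBD1 and E2F6. Their values, centred on each gene's mean, differed from those of RICTOR by a root mean square of 0.069, 0.0702 and 0.0706 log2 units, and 169 genes lay within 0.2. The centred values of RICTOR itself had a root mean square of 0.303. None of these 3 genes was called (adjusted p = 0.536, 0.762 and 0.756 from limma). They were picked for their likeness to RICTOR, which was not called either, so this is no separate result.

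The rest of the pathway was followed in 9 lists of 116 genes by role, of which 101 were measured and 15 were not listed. None of the 101 was called, and the smallest adjusted p from limma was 0.196. At an unadjusted p under 0.05 there were 15 (5 higher and 10 lower with IGFBP2 overexpression), a level that 13% of all genes reached, and limma voom and the trend called none. The groups did not overlap in 15 of the 101 (14.9%), 6 above and 9 below, against 18% of all genes (9.43% above and 8.61% below). The median log2 fold change was -0.07 and the values ran from -1.01 to 1.16. Of the 101 genes, 5 had a mean above 5 CPM in 1 group only (2 in control and 3 in IGFBP2 overexpression), so the filter kept them through the group where they are high. They include PRR5L, an mTORC2 subunit at the low end of that range (3 to 11 reads with IGFBP2 overexpression), which is also among the 10 lower ones and is named after its values were seen.

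**Figure D3:**
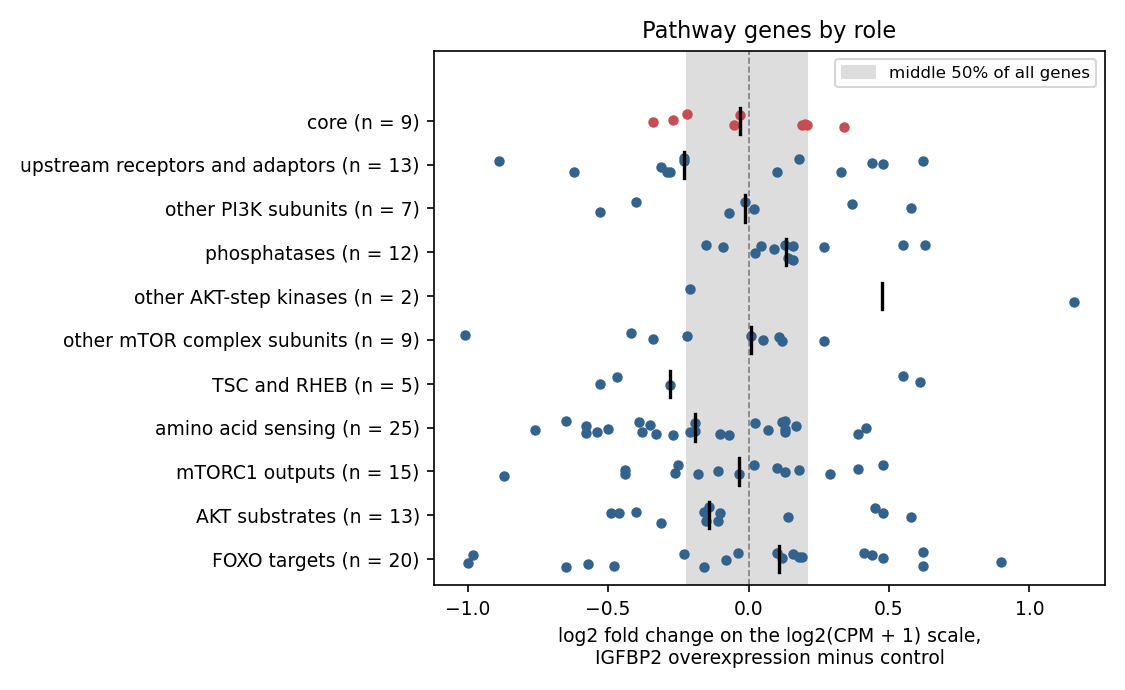
Difference in log2(CPM + 1), IGFBP2 overexpression minus control, of the core genes, the 9 other pathway lists and FOXO targets, with points as genes and black lines as list medians. Grey marks the middle 50% of all genes (-0.22 to 0.21), and the 9 core genes lie between -0.34 and 0.34.

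Receptors and adaptors that feed PI3K were all measured (13 of 13). EGFR, the receptor amplified in this line, was at 869, 1137 and 805 CPM in control and 1358, 1319 and 1110 CPM in IGFBP2 overexpression libraries. The lowest IGFBP2 overexpression library lay below control replicate 2, and the log2 fold change was 0.44 (adjusted p = 0.406 from limma). IGF1R, the receptor for the growth factors that IGFBP2 binds, was at 5.99, 9.74 and 10.9 CPM in control and 12.5, 7.75 and 14.1 CPM in IGFBP2 overexpression libraries (log2 fold change 0.33, adjusted p = 0.68).

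GAB2, an adaptor that recruits p85, was at 89.5, 96.8 and 63.9 CPM in control and 50.3, 63.6 and 46.6 CPM in IGFBP2 overexpression libraries. Its groups did not overlap, by a margin of less than 1 CPM, and its log2 fold change was -0.62 (adjusted p = 0.293 from limma). It was the only 1 of the 13 receptors and adaptors (7.69%) without overlap, against 18% of all genes. Of the 13 log2 fold changes, 6 were above 0 and 7 below. IRS1, named after its values were seen, had the lowest, -0.89 (adjusted p = 0.26 from limma), and its groups overlapped. Among other PI3K subunits (7 of 12 measured), 1 lay above and 1 below without overlap (28.6%), against 18% of all genes. PIK3C2B, a class II PI3K, was at 8.21, 4.45 and 8.49 CPM in control and 11.7, 10 and 10.5 CPM with IGFBP2 overexpression. It was the farthest of its list without overlap, with a log2 fold change of 0.58 (adjusted p = 0.354). PIK3C2A, the other class II PI3K without overlap, named after its values were seen, lay the other way at 86.1, 87.9 and 93.8 CPM in control and 59.6, 66.8 and 57.8 CPM with IGFBP2 overexpression (log2 fold change -0.53, adjusted p = 0.248).

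Of the lipid and protein phosphatases that oppose the pathway, 12 of 13 were measured, and limma called none. The groups overlapped in all 12, against 18% of all genes without overlap. The 1 gene at an unadjusted p under 0.05 (13% of all genes), PHLPP2, named after its values were seen, passed the minimum of 5 CPM only through IGFBP2 overexpression, where it is high.

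Of 4 other kinases at the AKT step 2 were measured, and neither was called. SGK1, a relative of AKT that mTORC2 also phosphorylates and that is named after its values were seen, had the highest log2 fold change of the pathway lists, 1.16 (SE 0.54, adjusted p = 0.411 from limma). It was at 17.8, 2.23 and 8.49 CPM in control and 17.5, 23.6 and 13.1 CPM in IGFBP2 overexpression libraries, and control replicate 1 lay within the range of the latter.

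In the TSC and RHEB list the groups did not overlap in 3 of 5 genes, 1 above and 2 below, against 18% of all genes. With 5 genes this is a description of the list only. RHEB, the GTPase that activates mTORC1, was at 61.3, 54.2 and 61.9 CPM in control and 90.4, 87.2 and 93.6 CPM in IGFBP2 overexpression libraries. All 3 IGFBP2 overexpression libraries were above all controls, at 90.4 ± 3.23 against 59.1 ± 4.24 CPM (SD, n = 3). The log2 fold change was 0.61 (SE 0.17, adjusted p = 0.196 from limma), so RHEB was not called.

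TSC1 and TSC2 form the complex that keeps RHEB inactive, and they are named here after their values were seen. TSC1 was at 32, 33.1 and 33.6 CPM in control and 26.9, 23.6 and 20.4 CPM in IGFBP2 overexpression libraries, and TSC2 at 18.6, 16.4 and 26.7 CPM against 14.4, 11.3 and 15.4 CPM. All 3 IGFBP2 overexpression libraries were below all controls for each. The log2 fold changes were -0.47 for TSC1 (adjusted p = 0.321) and -0.53 for TSC2 (adjusted p = 0.374 from limma), and neither was called.

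**Figure D4:**
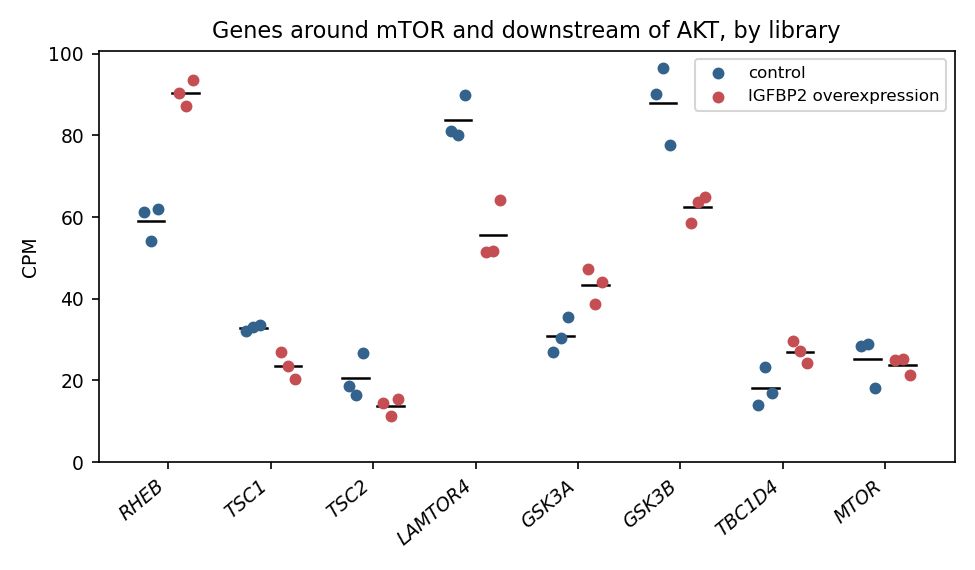
CPM of RHEB, TSC1, TSC2, LAMTOR4, GSK3A, GSK3B, TBC1D4 and MTOR in 3 control and 3 IGFBP2 overexpression libraries, with points as libraries and lines as group means. The groups overlap for MTOR. The other genes drawn were chosen from those whose groups do not overlap, as is so for 18% of all genes, and none was called. TBC1D7 and RHEBL1, whose groups overlap, and LAMTOR5, which lies opposite to LAMTOR4, are not drawn.

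Among the 25 measured genes of amino acid sensing (of 31), the median log2 fold change was -0.19 and 3 (12%) did not overlap, 1 above and 2 below, against 18% of all genes. LAMTOR4, a subunit of the complex that anchors mTORC1 at the lysosome, was at 81.2, 80.1 and 89.8 CPM in control and 51.5, 51.6 and 64.1 CPM with IGFBP2 overexpression. Its groups were apart by more than 10 CPM, with a log2 fold change of -0.58 (adjusted p = 0.236 from limma). LAMTOR5, a subunit of the same complex named after its values were seen, was at 99.9, 105 and 110 CPM in control and 120, 159 and 145 CPM with IGFBP2 overexpression. It lay the other way without overlap, with a log2 fold change of 0.42 (adjusted p = 0.392). The other 9 subunits of the mTOR complexes were all measured. None of these 9 was called, none was without overlap, and their median was 0.01.

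Of 15 genes for mTORC1 outputs, 2 (13.3%) did not overlap, against 18% of all genes, with RPS6 below and RPS6KA1 above (log2 fold change 0.39). RPS6KA1, named after its values were seen, encodes a kinase known as a target of ERK and PDPK1 rather than of mTORC1, so its place in the list is loose. RPS6, a ribosomal protein that is phosphorylated below mTORC1 and has many processed copies that make its reads uncertain, was at 2616, 2834 and 2156 CPM in control and 1819, 1743 and 2017 CPM in IGFBP2 overexpression libraries. Its log2 fold change was -0.44 (adjusted p = 0.369 from limma). Over all 82 ribosomal protein genes the share of reads was 13.5%, 14.1% and 12.7% in control and 12.6%, 12.8% and 14.3% with IGFBP2 overexpression, and the groups overlapped.

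AKT substrates were measured for 13 of 14 genes, and 4 (30.8%) did not overlap, 2 above and 2 below, against 18% of all genes. TBC1D4, which controls glucose transporter traffic, was at 14, 23.4 and 17 CPM in control and 29.6, 27.1 and 24.3 CPM in IGFBP2 overexpression libraries. Its groups were apart by less than 1 CPM (log2 fold change 0.58, adjusted p = 0.315 from limma). GSK3A and GSK3B, kinases that AKT inhibits and that are named after their values were seen, differed in sign. The log2 fold change was 0.48 for GSK3A (adjusted p = 0.335) and -0.49 for GSK3B (adjusted p = 0.295).

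FOXO transcription factors are kept out of the nucleus by AKT, so messenger RNA of their targets can reflect AKT activity. AKT activity itself was not measured here, and the counts below describe the target genes only. Of 25 FOXO targets 20 were measured (5 of them also in the pathway lists), and limma called none. At an unadjusted p under 0.05 there were 6, of which 3 were higher and 3 lower, beside 13% of all genes. The groups did not overlap in 5 of the 20 (25%), 2 above and 3 below, against 18% of all genes. The median log2 fold change was 0.11, with values from -1.0 to 0.90.

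BCL6, a transcriptional repressor that FOXO factors induce, was at 5.77, 7.79 and 4.45 CPM in control and 2.34, 4.2 and 1.31 CPM in IGFBP2 overexpression libraries. All 3 IGFBP2 overexpression libraries were below the controls, with a log2 fold change of -1.0 (adjusted p = 0.231 from limma). BCL6 passed the minimum of 5 CPM only through control, where it is high, and had 4 to 13 reads with IGFBP2 overexpression, so its direction is not independent of the filter. GADD45B, a stress-response gene named after its values were seen, was at 81.7, 130 and 148 CPM in control and 56.9, 48.7 and 71.9 CPM with IGFBP2 overexpression. It had a log2 fold change of -0.98 and an adjusted p of 0.175 from limma without the trend and 0.0365 with it. Other targets, also named after their values were seen, went either way. PINK1 (log2 fold change 0.62, adjusted p = 0.248 from limma) and BCL2L11 (0.41, adjusted p = 0.344) lay above without overlap. TRIB1 (-0.57, adjusted p = 0.32) lay below without overlap. MXI1 had the highest log2 fold change, 0.90 (adjusted p = 0.367), and its groups overlapped.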

How the data were processed

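Per the authors' methods and the submitters' processing notes, QuantSeq 3' reads of 6 MDAMB468 libraries were aligned to GRCh38 with STAR, counted per gene with HTSeq 0.9.1 and scaled with edgeR. Genes with a mean CPM above 5 in a condition were kept, and the authors deposited their values as log2(CPM + 1). The strand setting of the counting is not given in the sources used here.

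The deposited log2 values of all 10487 genes were fitted with limma 3.58.1 (R 4.3.3), with condition as the only term, and p-values were adjusted by Benjamini-Hochberg over all genes. Whole reads were recovered for 100% of values (within 0.01 of a read) and used for limma voom and other scalings. A count test in edgeR was not run. The listed genes held 2497353 to 4579587 reads per library. Symbols and positions came from GENCODE 44 (10462 of 10487 identifiers matched), and promoters from RefSeq, where all 9 core genes matched. Ratios were tested in scipy 1.17.1. The fit was tested on simulated data.

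The core genes, the lists, the main test and the rule for named genes were chosen with earlier results of these data known. The rule names the core genes, IGFBP2, IGF1R, EGFR, called list genes, the farthest non-overlapping gene of each list and the 3 genes most like the core gene of smallest p. A gene that the rule also names is not reported here. Alternatives covered scaling, variance model, pseudocount, a CPM filter, the threshold, a replicate block and omission of each library in turn. Same-numbered libraries are not tied to a shared culture by the labels.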

Additional observations from a re-analysis of the deposited data

How the results depend on the processing

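None of the 9 core genes and none of the 101 other pathway genes was called under any alternative that tested it. The number of FOXO targets called was 0 except for 1 (GADD45B) with the mean-variance trend. Over all genes the 66 calls became 160 with the trend, 141 with limma voom, 37 with a pseudocount of 0.1, 129 with a pseudocount of 5 and 132 at an adjusted p under 0.1. With each library left out, 12 to 79 genes were called (12, 13 and 17 on omitting, respectively, IGFBP2 overexpression replicate 1, IGFBP2 overexpression replicate 2 or control replicate 3). Signs of core genes turned for PIK3CB (-0.38 to 0.0087 on leaving out libraries), AKT2 (-0.16 to 0.14), MTOR (-0.26 to 0.059) and RPTOR (-0.049 to 0.54). Leaving out libraries moved the log2 ratio of PIK3CA to PIK3CB from -0.34 to 0.19, of PIK3R1 to PIK3CA from -0.19 to 0.39, of AKT1 to AKT2 from -0.13 to 0.58 and of RICTOR to RPTOR from -0.32 to 0.42. The cause was not tested. Without control replicate 3 the AKT1 log2 fold change was 0.00052, and without control replicate 1 it was 0.42. An average CPM over 10 left 8 core genes (without RICTOR), 85 pathway genes and 19 FOXO targets to test. With the replicate block 55 genes were called and none of the 9. The check of pairing gave correlations of 0.172, -0.064 and 0.0842 between libraries with the same number, as deviations from group means. Libraries with different numbers were not compared, so the check cannot decide whether the libraries are paired. For RICTOR, at 16 to 25 reads, counting error is close to the whole spread, while for AKT2 the spread between libraries exceeds counting error.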
